A study of Mus musculus with 8 samples.

Results

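The BCL2 family was described through 10 genes, chosen by symbol among the 55487 genes counted in cultured Lewis lung carcinoma (LLC) cells, a mouse lung carcinoma line. They comprised 4 pro-survival genes (Bcl2, Bcl2l1, Bcl2l2 and Mcl1), the effector Bak1, and 5 BH3-only genes (Bcl2l11, Bid, Bad, Bik and Bmf). RNA-seq compared 4 libraries of wild-type cells with 4 libraries of ΔAgo2 cells, to ask what loss of Argonaute 2 does to the transcriptome of the tumor cell itself. ΔAgo2 cells were made by lentiviral CRISPR-Cas9 with a guide against Ago2, selected in puromycin and sorted into clones. The clone behind these libraries is not given in the sources used here. Nor do they say whether wild-type cells went through the same steps. Loss of Ago2 therefore cannot be told apart here from effects of the clone, the lentivirus or the selection. Both genotypes were grown untreated in the same serum-containing medium. The sample titles and library names do not give a batch of culture, RNA extraction or sequencing. The labels call the replicates biological without saying that they were separate cultures, so p-values measure only the spread between these samples. Replicates 1 and 2 of ΔAgo2 lay closest, with a mean chi-square of counts per gene of 22.8. The other ΔAgo2 pairs had 89.0 to 126, and the cause was not tested.

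Proteins of this family decide whether the outer membrane of mitochondria is kept intact or opened. Pro-survival members hold the effectors BAK and BAX in check, and BH3-only members, which carry only the BH3 helix of the family, sense stress and bind the pro-survival proteins or the effectors. Once BAK or BAX form pores, cytochrome c leaves the mitochondria and caspases are activated. Many cancer cells depend on BCL-XL, encoded by Bcl2l1, or on MCL1 to survive. Several family messages are classical targets of microRNAs, the guides that Argonaute proteins use to find messages.

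Of the 10 members, 9 passed the filter on low counts and Bik did not. Between genotypes, 0 of the 9 were called at an adjusted p under 0.05 (quasi-likelihood test of edgeR, Benjamini-Hochberg over all tested genes). Among the 14228 tested genes 0.295% were called, 0.0773% higher and 0.218% lower in ΔAgo2 cells. At an unadjusted p under 0.05 edgeR also had 0 of the 9, against 7.34% of all tested genes, 2.72% higher and 4.62% lower. DESeq2 likewise had no member at an adjusted p under 0.05, against 2.23% of genes, and it gave 2 members, Bcl2l11 and Bad, an unadjusted p under 0.05, against 6.48% of genes. The highest value in ΔAgo2 relative to wild-type cells belonged to Bcl2l11, which encodes the BH3-only protein BIM, at a log2 fold change of 0.84 ± 0.38 (SE). The lowest belonged to Bad, at −1.42 ± 0.65, and that value rested on a single wild-type library.

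That library, wild-type replicate 4, stood apart from the rest. Its median Spearman correlation with the other wild-type libraries was 0.864, against 0.948 to 0.961 for the other wild-type and 0.985 to 0.986 for the ΔAgo2 libraries. Mitochondrial transcripts made up 0.540% of its counts and 2.39% to 4.51% elsewhere. The genotype difference of each member is therefore given with and without it. Wild-type libraries held 40740643 to 68530912 counts in total, and those of ΔAgo2 cells 39628101 to 57595675. The Ago2 transcript, at 119 to 519 CPM (library-scaled counts) in wild-type and 293 to 409 in ΔAgo2 libraries, did not separate the genotypes, with a log2 fold change of 0.21 ± 0.40 (SE). Transcript level is therefore no check of the genotype label here. The paper assessed Ago2 protein in wild-type and ΔAgo2 LLC cells by western blot. The keratins Krt8 (66.8 to 741 TPM, counts per gene length scaled to the same sum in every library) and Krt18 (179 to 928) were abundant. The keratin Krt19 was at only 0.27 to 4.7 TPM. The epithelial junction genes Epcam and Cdh1 stayed at or under 1 and 9 counts per library. These 5 epithelial markers summed to 246 to 1673 TPM in wild-type and 730 to 1133 in ΔAgo2 libraries. Leukocyte markers summed to 1.25 to 6.33 TPM in wild-type and 1.76 to 2.66 in ΔAgo2 libraries, with 4 of 5 at or under 3 counts everywhere. Fibroblast markers summed to 4.69 to 25.45 TPM in wild-type and 14.79 to 30.87 in ΔAgo2 libraries. Among them Pdgfra was at 2.66 to 28.93 TPM. Endothelial markers summed to 0.03 to 0.3 TPM in wild-type and 0.17 to 0.75 in ΔAgo2 libraries. In bulk RNA, fewer cells of a type and less RNA per cell cannot be told apart.

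Because Ago2 carries microRNAs, the 3′ UTRs of the members were searched for seed matches of 10 microRNA families that are widely linked with this gene family or with the cell cycle. Mature mouse microRNAs (RefSeq, GRCm38.p6) are printed 5′ to 3′ with the seed, bases 2 to 8, in capitals, and those that share a seed stand next to each other.
mmu-miR-15a-5p: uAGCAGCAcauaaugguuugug
mmu-miR-16-5p: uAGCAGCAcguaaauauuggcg
mmu-miR-17-5p: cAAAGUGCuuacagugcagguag
mmu-miR-20a-5p: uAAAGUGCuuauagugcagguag
mmu-miR-106b-5p: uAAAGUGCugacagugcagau
mmu-miR-19b-3p: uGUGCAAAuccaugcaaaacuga
mmu-miR-25-3p: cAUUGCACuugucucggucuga
mmu-miR-92a-3p: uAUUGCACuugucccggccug
mmu-miR-29a-3p: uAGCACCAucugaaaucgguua
mmu-miR-34a-5p: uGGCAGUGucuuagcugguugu
mmu-let-7a-5p: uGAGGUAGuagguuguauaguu
mmu-miR-24-3p: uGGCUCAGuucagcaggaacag
mmu-miR-125b-5p: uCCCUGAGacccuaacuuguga
mmu-miR-221-3p: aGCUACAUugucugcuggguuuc
mmu-miR-222-3p: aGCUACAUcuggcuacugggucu

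The seed matches, read on the sense strand of the longest annotated 3′ UTR of each gene in GRCm38, are TGCTGCT for miR-15, GCACTTT for miR-17, TTTGCAC for miR-19, GTGCAAT for miR-25, TGGTGCT for miR-29, CACTGCC for miR-34, CTACCTC for let-7, CTGAGCC for miR-24, CTCAGGG for miR-125 and ATGTAGC for miR-221. TGCTGCT can overlap itself and TGGTGCT, and both overlaps occurred in Bcl2l2. The BH3-only genes Bcl2l11 and Bmf held the most matches, 10 each, in 3′ UTRs of 4218 and 3801 bases. They covered 6 and 7 of the 10 families. By family, 18.2% to 54.5% of tested genes with a 3′ UTR similar in length to that of Bcl2l11 held a match. For Bmf these shares were 17.0% to 51.25%. How many families such genes covered was not counted. The microRNA families were picked partly for known links with this gene family, and the counts were not scaled to UTR length. The counts therefore do not rank the members as targets. Bcl2l2 held 9 matches in 3177 bases, Mcl1 4 in 2353, Bak1 4 in 1504, Bcl2 3 in 5086, Bid 3 in 1670, Bcl2l1 2 in 1477, Bad 2 in 1026, and Bik none in 409. The level of these microRNAs was not measured in these libraries, and a match is a description of letters, not of a working site.

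The sites below are shown because they belong to the members with the most matches, and because miR-15 with Bcl2, let-7 with Bcl2l1 and miR-29 with Mcl1 are textbook pairings. Matches of Bcl2l11 and Bmf to other families, among them 2 to miR-24 in Bcl2l11, are left out. Each site is 23 bases of 3′ UTR in GRCm38 with the seed match in capitals.
Bcl2l11 and miR-17, site 1, chr2:128159763-128159785, plus strand: cagcctggtggaggaGCACTTTc
Bcl2l11 and miR-17, site 2, chr2:128160437-128160459, plus strand: gtctccccgactggaGCACTTTa
Bcl2l11 and miR-25, site 1, chr2:128161159-128161181, plus strand: gagccaaatgtctctGTGCAATt
Bcl2l11 and miR-25, site 2, chr2:128162434-128162456, plus strand: attgccactgtacctGTGCAATa
Bcl2l11 and miR-221, site 1, chr2:128159442-128159464, plus strand: tccatgcttcttgggATGTAGCc
Bcl2l11 and miR-221, site 2, chr2:128162351-128162373, plus strand: gtcagaacccagcgtATGTAGCa
Bmf and miR-125, site 1, chr2:118532085-118532107, minus strand: cgcccaccgcatgggCTCAGGGa
Bmf and miR-125, site 2, chr2:118532044-118532066, minus strand: caacttccggaagacCTCAGGGa
Bmf and miR-125, site 3, chr2:118531428-118531450, minus strand: ctccccgctgcagtgCTCAGGGa
Bmf and miR-125, site 4, chr2:118530887-118530909, minus strand: gccacaatcatttttCTCAGGGt
Bmf and miR-221, chr2:118528944-118528966, minus strand: gggagacccagcgagATGTAGCa
Bcl2 and miR-15, chr1:106540798-106540820, minus strand: gaataagaaaccctgTGCTGCTa
Bcl2l1 and let-7, chr2:152781191-152781213, minus strand: accccaggggcttccCTACCTCa
Mcl1 and miR-29, chr3:95661844-95661866, plus strand: ctagagtcttaaccaTGGTGCTa

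Seed matches of 7 letters are common in UTRs of this length. Similar length means a ratio of at least 0.8, taken either way. Among tested genes with a 3′ UTR similar in length to that of Bcl2l11, 31.5% held at least 1 miR-17 match. The shares were 18.2% for miR-25, 27.1% for miR-221 and 42.4% for miR-24. Bcl2l11 held 2 of each, and the share of genes with more than 1 match was not counted. For Bmf, which held 4 miR-125 matches, 31.4% of genes of like UTR length had at least 1. The share with a miR-15 match was 58.5% for UTRs as long as that of Bcl2, with a let-7 match 11.5% for those like Bcl2l1, and with a miR-29 match 23.3% for those like Mcl1.

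Compared per gene length in TPM, the pro-survival genes Mcl1 and Bcl2l1 and the effector Bak1 were the most abundant members in both genotypes. Mean TPM in wild-type cells was 153 ± 71.6 (SD, n = 4) for Mcl1, 131 ± 69 for Bak1 and 129 ± 30.6 for Bcl2l1. Bad followed at 60.3 ± 55.4, then Bcl2l11 (22.5 ± 11.2), Bcl2l2 (22.2 ± 11.8), Bid (18.8 ± 5.0), Bcl2 (18.6 ± 13.5), Bmf (3.33 ± 1.16) and Bik (0.133 on average). Neighbours in this order had overlapping ranges, except Bmf and Bik. The places of Bak1 and Bad rested on wild-type replicate 4. Without it, the wild-type means were 183 ± 48.7 TPM (SD) for Mcl1, 126 ± 36.3 for Bcl2l1, 99.4 ± 31.4 for Bak1 and 33.3 ± 15 for Bad, the same order as in ΔAgo2 cells for the first 3. The ΔAgo2 libraries lay closer together, and their order was Mcl1 at 158 ± 16.8 TPM (SD, n = 4), Bcl2l1 at 134 ± 20.9, Bak1 at 103 ± 16.3, Bcl2l11 at 44.0 ± 12.2, Bad at 30.8 ± 3.85, Bcl2 at 24.9 ± 4.21, Bcl2l2 at 22.0 ± 3.20, Bid at 19.7 ± 2.06, Bmf at 6.36 ± 1.28 and Bik at 0.0250 ± 0.0289. In ΔAgo2 libraries the ranges of Bak1 and Bcl2l11, of Bcl2l11 and Bad, of Bid and Bmf, and of Bmf and Bik did not overlap, and those of the other neighbours did.

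**Figure D1:**
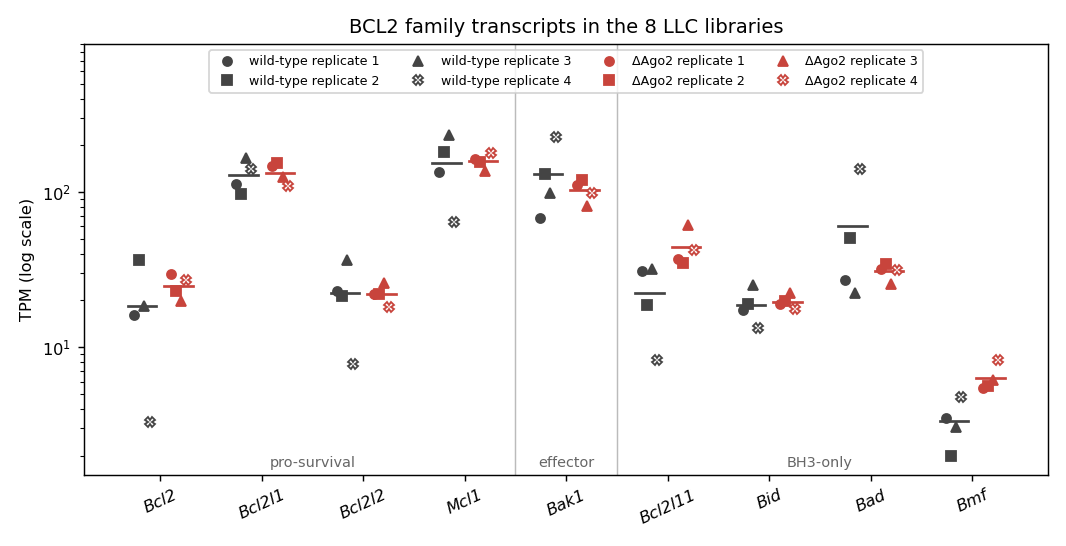
TPM of each of the 9 tested members in every library, on a log axis, with wild-type and ΔAgo2 libraries in separate colours. Bik is not shown. Mcl1, Bcl2l1 and Bak1 sit at the top and Bmf at the bottom. Wild-type replicate 4 lies far from the other wild-type libraries for Bad, Bcl2 and Bcl2l11.

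Bcl2 (ENSMUSG00000057329.7, chr1:106538178-106714274, minus strand) encodes the founding pro-survival protein of the family. It was at 48.0, 84.7, 49.6 and 13.6 CPM in wild-type replicates 1 to 4 and at 71.5, 58.2, 54.1 and 70.4 in ΔAgo2 replicates 1 to 4. CPM here are counts scaled to library sizes with edgeR's TMM factors. The wild-type libraries spanned the whole ΔAgo2 range, with the lowest value in replicate 4. The log2 fold change was 0.37 ± 0.45 (SE, adjusted p = 0.842 in edgeR) and 0.07 without wild-type replicate 4.

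Bcl2l1 (ENSMUSG00000007659.18, chr2:152780668-152831728, minus strand) encodes BCL-XL. Its wild-type values were 168, 114, 223 and 290 CPM, and its ΔAgo2 values 179, 194, 169 and 141. The ΔAgo2 libraries fell within the wild-type range, and wild-type replicate 4 was the highest of all 8. The log2 fold change was −0.22 ± 0.31 (SE, adjusted p = 0.870 in edgeR), with a 95% interval from −0.91 to 0.47, and it was 0.03 without wild-type replicate 4.

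Mcl1 (ENSMUSG00000038612.16, chr3:95658788-95663176, plus strand) encodes a short-lived pro-survival protein that is degraded quickly after ubiquitination. Wild-type libraries held 150, 158, 232 and 98.2 CPM and ΔAgo2 libraries 147, 147, 138 and 172, again inside the wild-type range. Its log2 fold change was −0.08 ± 0.29 (SE, adjusted p = 0.957 in edgeR) and −0.25 without wild-type replicate 4. Bcl2l2 (ENSMUSG00000089682.10, chr14:54883377-54888234, plus strand), which encodes BCL-W, was at 33.2, 24.4, 47.8 and 15.7 CPM in wild-type and at 26.0, 26.9, 34.2 and 22.9 in ΔAgo2 libraries. The groups overlapped, and the log2 fold change of −0.14 ± 0.35 (SE, adjusted p = 0.935 in edgeR) became −0.34 without wild-type replicate 4, with an adjusted p of 0.594. The 95% interval of the log2 fold change ran from −0.62 to 1.37 for Bcl2, from −0.73 to 0.57 for Mcl1 and from −0.91 to 0.64 for Bcl2l2.

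Bak1 (ENSMUSG00000057789.14, chr17:27019810-27029009, minus strand) encodes the effector BAK, which resides in the outer mitochondrial membrane. Wild-type replicates 1 to 3 held 53.2, 80.6 and 69.5 CPM, wild-type replicate 4 held 247, and ΔAgo2 libraries held 71.1, 78.9, 58.2 and 66.9. Apart from wild-type replicate 4, the values of both genotypes were interleaved. The log2 fold change was −0.71 ± 0.46 (SE, adjusted p = 0.740 in edgeR) with all libraries and 0.03 without wild-type replicate 4, when its adjusted p was 0.973.

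**Figure D2:**
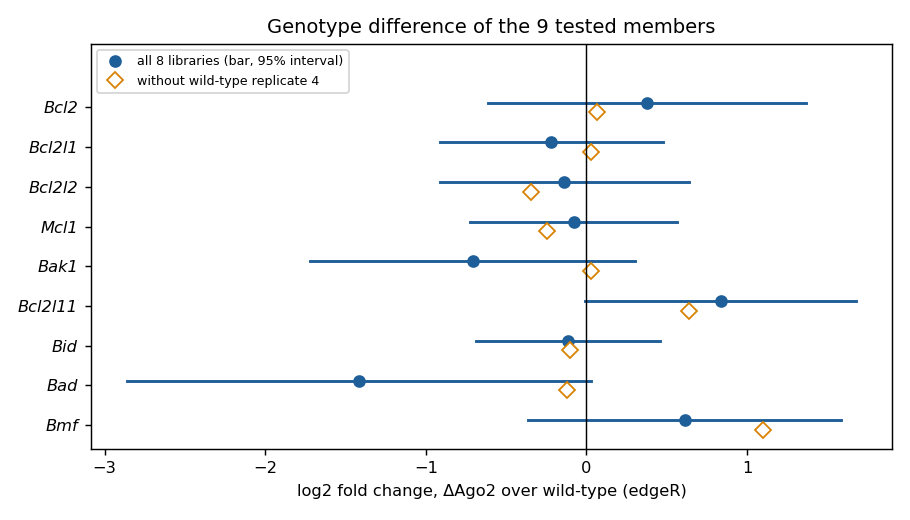
Log2 fold change of ΔAgo2 over wild-type cells for the 9 tested members (edgeR), with filled circles and 95% intervals for all 8 libraries and open diamonds for the fit without wild-type replicate 4. All intervals include 0, and the values of Bad and Bak1 move close to 0 without that library while that of Bmf moves up to 1.10.

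Bcl2l11 (ENSMUSG00000027381.16, chr2:128126038-128162547, plus strand) encodes BIM, a BH3-only protein that binds every pro-survival member. Its 3′ UTR carries the miR-17 and miR-25 matches printed above. Wild-type libraries held 80.4, 38.5, 74.8 and 29.7 CPM and ΔAgo2 libraries 79.0, 77.3, 146 and 96.5. Wild-type replicate 1 exceeded the 2 lowest ΔAgo2 libraries, so the groups overlapped on this scale. In TPM they did not overlap, with 30.9, 18.8, 31.9 and 8.21 in wild-type and 37.1, 34.9, 61.7 and 42.5 in ΔAgo2 libraries. The log2 fold change of 0.84 ± 0.38 (SE) had a 95% interval from −0.01 to 1.68, an unadjusted p of 0.0514 and an adjusted p of 0.678 in edgeR. Without wild-type replicate 4 it was 0.64 (unadjusted p = 0.0658, adjusted p = 0.434 in edgeR).

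Bmf (ENSMUSG00000040093.15, chr2:118528757-118549687, minus strand) encodes a BH3-only protein tied to the cytoskeleton through dynein light chains. It was at 5.90, 2.68, 4.67 and 11.3 CPM in wild-type and at 7.62, 8.08, 9.56 and 12.2 in ΔAgo2 libraries. Wild-type replicates 1 to 3 lay below every ΔAgo2 library, and wild-type replicate 4 lay above 3 of them. In TPM, wild-type libraries were at 3.47, 2.00, 3.04 and 4.79 and ΔAgo2 libraries at 5.47, 5.58, 6.15 and 8.23, without overlap. The log2 fold change was 0.61 ± 0.44 (SE, adjusted p = 0.757 in edgeR). Without wild-type replicate 4 it was 1.10, with an unadjusted p of 0.00784 and an adjusted p of 0.203 in edgeR. In that fit 12.6% of tested genes had an unadjusted p under 0.05, and Bmf was the 1 member among them, while 0.777% had an adjusted p under 0.05.

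Bcl2l11 and Bmf were thus the 2 members whose TPM was higher in every ΔAgo2 than in every wild-type library, and no member was lower in all. Over all tested genes, 4.26% were higher without overlap in TPM and 1.93% lower. On the CPM scale no member separated the groups, against 3.09% higher and 2.98% lower over all tested genes. The ratio of TPM to CPM was lowest in wild-type replicate 4. Bmf was at 11.3 CPM but 4.79 TPM there, and at 5.90 CPM and 3.47 TPM in wild-type replicate 1. For Bcl2l11 the overlap in CPM came instead from wild-type replicate 1, at 80.4 CPM and 30.9 TPM.

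Bad (ENSMUSG00000024959.14, chr19:6941861-6951899, plus strand) encodes a BH3-only protein that growth factor signaling silences by phosphorylation. It was at 22.6, 32.9 and 16.6 CPM in wild-type replicates 1 to 3, at 163 in wild-type replicate 4, and at 21.8, 24.2, 19.2 and 22.8 in ΔAgo2 libraries. The ΔAgo2 values fell inside the range of wild-type replicates 1 to 3. The log2 fold change of −1.42 ± 0.65 (SE, unadjusted p = 0.0536, adjusted p = 0.678 in edgeR) became −0.12 without wild-type replicate 4. Its exons share 524 bases with those of Gpr137 on the opposite strand, which was also high in that library, by 1.59 on the log2 CPM scale over the mean of the other wild-type libraries. The strand setting of the counting is not given in the sources used here, so reads of the pair may not be separable.

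Bid (ENSMUSG00000004446.12, chr6:120891930-120916853, minus strand) encodes the BH3-only protein that caspase-8 cleaves to link death receptors with mitochondria. It had the smallest SE of the 9 members, with 20.1, 17.2, 26.2 and 21.2 CPM in wild-type and 17.8, 19.4, 23.6 and 17.7 in ΔAgo2 libraries. The groups overlapped, with a log2 fold change of −0.11 ± 0.26 (SE, adjusted p = 0.926 in edgeR) and −0.10 without wild-type replicate 4. It shares 628 exon bases with Bcl2l13 on the opposite strand, a more highly counted gene at a log2 fold change of −0.19. Bik (ENSMUSG00000016758.4, chr15:83526862-83544634, plus strand), a BH3-only protein of the endoplasmic reticulum, had 5, 2, 8 and 0 counts in wild-type and 0, 1, 1 and 0 counts in ΔAgo2 libraries. At this depth it was at or near the floor of 3 counts, and no fold is given.

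Within the 10 members, the roles were compared as shares of their summed TPM. That sum leaves out the effector Bax, at a mean of 230 TPM in wild-type and 214 in ΔAgo2 cells. It also leaves out the BH3-only gene Bbc3, at 75.7 and 58.0 TPM. The shares are therefore not the balance of survival and death genes in the whole family. The sum was 435, 558, 636 and 610 in wild-type and 566, 568, 505 and 529 in ΔAgo2 libraries. Pro-survival genes made up 66.1%, 60.3%, 71.5% and 35.3% of it in wild-type and 63.8%, 62.4%, 60.9% and 62.6% in ΔAgo2 libraries. Wild-type replicate 4 was the exception, with Bak1 at 37.3% and BH3-only genes at 27.5%. In the other 7 libraries Bak1 took 15.5% to 23.5% and BH3-only genes 13.0% to 22.9%, and the genotypes overlapped in all 3 shares. Mcl1 and Bcl2l1 together supplied 82.9% to 94.9% of the pro-survival TPM in every library. Within the BH3-only genes, Bcl2l11 held 39.0%, 20.8%, 38.6% and 4.90% of the TPM in wild-type and 39.7%, 36.9%, 53.3% and 42.6% in ΔAgo2 libraries, and these ranges overlapped too.

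**Figure D3:**
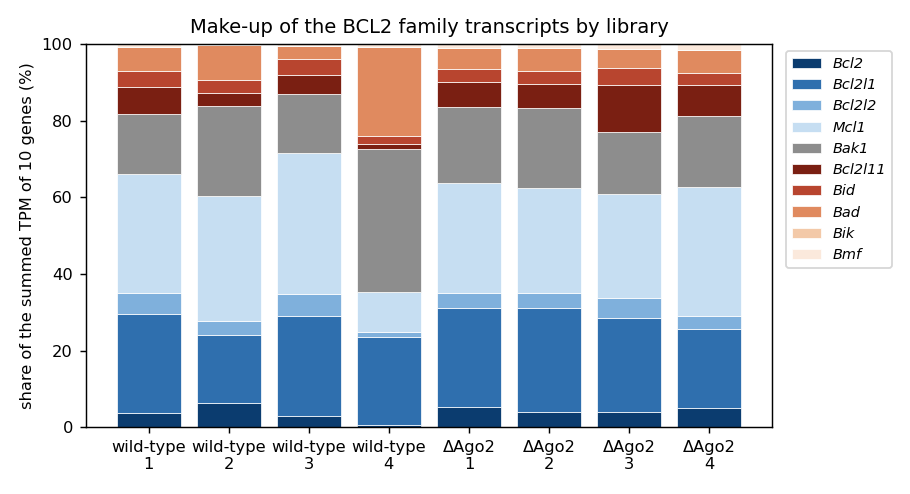
Share of the summed TPM of the 10 members taken by each gene in every library, as stacked bars from 0 to 100%. The widest segment is Mcl1 in the 4 ΔAgo2 bars and wild-type replicates 1 to 3, followed by Bcl2l1 in all of these except wild-type replicate 2, where Bak1 follows, while Bad and Bak1 widen in wild-type replicate 4.

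The departure of wild-type replicate 4 followed the base composition of the members. Relative to the mean of wild-type replicates 1 to 3 on the log2 CPM scale, it was at −2.10 for Bcl2 (46.3% GC in the longest transcript), −1.05 for Bcl2l11 (48.0%), −0.85 for Mcl1 (48.7%), −1.11 for Bcl2l2 (53.1%), 0.02 for Bid (51.3%), 1.43 for Bmf (53.7%), 0.84 for Bcl2l1 (55.9%), 1.89 for Bak1 (57.1%) and 2.82 for Bad (57.1%). Spearman's rho of GC content and departure was 0.883 over these 9 members and 0.722 over all tested genes, which share the library and are not independent replicates. Genes within 1 percentage point of the GC content of Bad had a median departure of 1.27, and those near Bcl2l2 one of 0.75. With a GC correction of every library, the log2 fold change was 0.79 for Bcl2l11 (unadjusted p = 0.0380, adjusted p = 0.492 in edgeR), 0.95 for Bmf (unadjusted p = 0.0131, adjusted p = 0.347), −0.67 for Bad and −0.18 for Bak1. Under this correction 9.59% of tested genes had an unadjusted p under 0.05. What set wild-type replicate 4 apart was not tested.

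**Figure D4:**
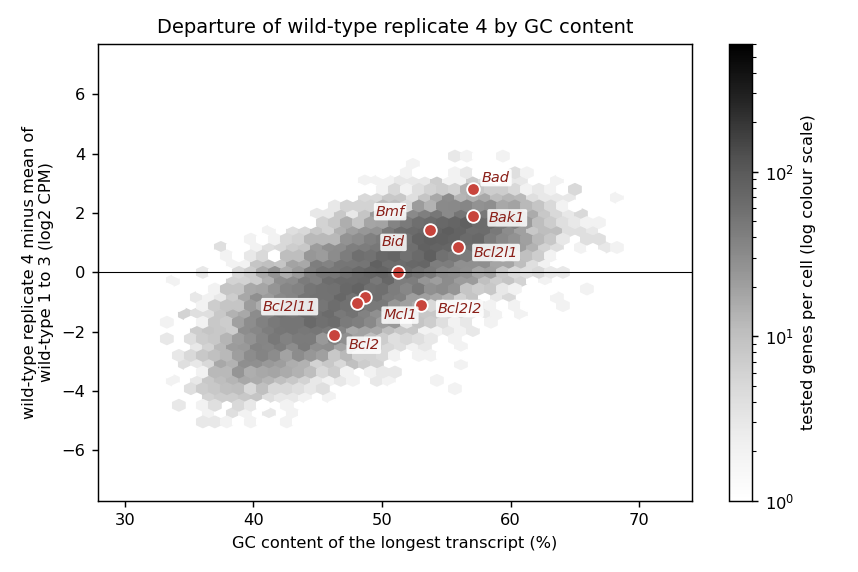
Departure of wild-type replicate 4 from the mean of wild-type replicates 1 to 3 (log2 CPM) against GC content of the longest transcript (%), with all tested genes as grey cells on a log colour scale and the 9 tested members as red points. Departure climbs with GC content, from −2.10 for Bcl2 to 2.82 for Bad.

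The other genes of the pathway were read from 9 lists of 56 genes, of which 48 were tested. None of the 48 had an adjusted p under 0.05 in edgeR and none an unadjusted p under 0.05. Their log2 fold changes were above 0 for 19 and below 0 for 29, with a median of −0.18, beside a median of −0.11 for the 9 tested members and −0.11 for all tested genes. Without wild-type replicate 4 the 3 medians were 0.08, 0.03 and −0.04. The 8 genes that were not tested, among them Bcl2a1a, Bcl2a1b, Bcl2a1d and Bcl2l10 of the pro-survival group and the BH3-only gene Hrk, had at most 17 counts in any library.

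The most abundant genes of these lists are given by role. Bax, the effector that joins Bak1 in forming pores, was at a log2 fold change of −0.46, and at 0.21 without wild-type replicate 4. Bbc3, the BH3-only gene that encodes PUMA, was at −0.58 and −0.54 in the same order. Bnip3l, a mitophagy receptor, was at 0.32 and 0.16. The mitochondrial channel Vdac1 was at −0.43 and −0.13. None of these 4 differed beyond the spread between replicates in either fit.

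Btrc, a ubiquitin ligase subunit named after its values were seen, was lower without overlap in CPM but not in TPM. Over all tested genes 2.98% were lower without overlap in CPM. The log2 fold change of Btrc was −0.22 (unadjusted p = 0.350, adjusted p = 0.820 in edgeR), and −0.13 without wild-type replicate 4. Birc5, the inhibitor of apoptosis survivin, was at −0.26 and −0.05, the death receptor Tnfrsf1a at −0.20 and 0.23, and Huwe1, a ubiquitin ligase of MCL1, at 0.16 and −0.11, each with and without wild-type replicate 4. Trp53, the transcription factor p53 that induces Bbc3 and Pmaip1, was at −0.68 and 0.13.

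Without wild-type replicate 4, 5 of the 48 genes had an unadjusted p under 0.05, where 12.6% of all tested genes did, and they are named after their values were seen. Pmaip1, the BH3-only gene that encodes the MCL1 antagonist NOXA, was at a log2 fold change of −1.16 (unadjusted p = 0.00699 in edgeR). Diablo, which encodes a mitochondrial antagonist of IAPs, was at −0.93, the IAP Birc2 at −0.64 and the transcription factor Foxo1 at −0.86. E2f1, a cell cycle transcription factor, was at 0.75. None of the 5 had an adjusted p under 0.05 in that fit.

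**Figure D5:**
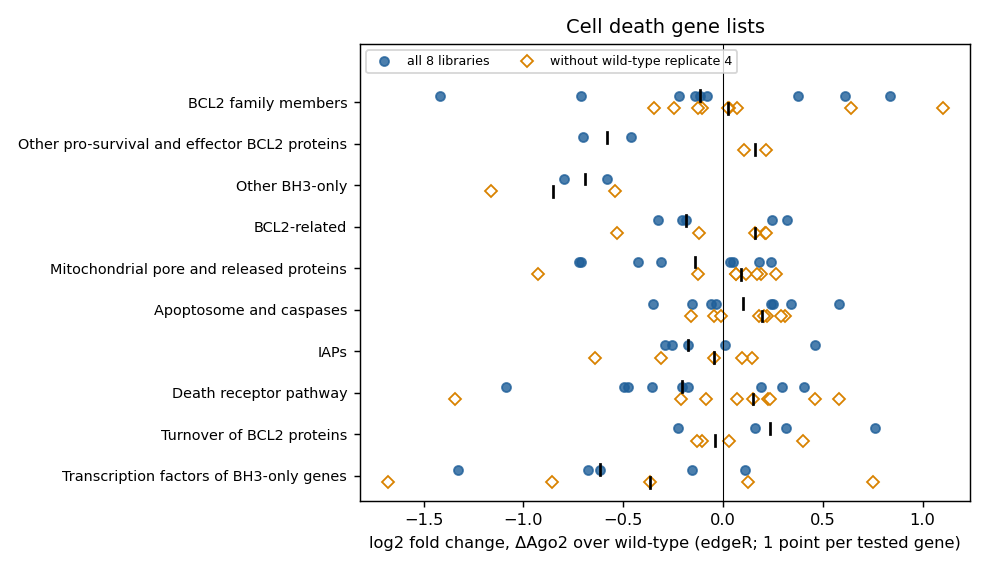
Log2 fold change of ΔAgo2 over wild-type cells for the tested genes of the members and of the 9 other lists (edgeR), 1 point per gene, with filled points for all 8 libraries, open diamonds without wild-type replicate 4 and black ticks for medians. Most lists straddle 0, and several medians change sign without that library.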

How the data were processed

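RNA was purified from cultured wild-type and ΔAgo2 LLC cells, and stranded poly(A) libraries were sequenced in paired-end mode. The authors aligned reads to ribosomal RNA and then to mm10 (STAR is named in the submitters' processing notes) and counted them per gene with featureCounts. They deposited raw counts and TPM for 55487 genes. The annotation release and strand setting are not given in the sources used here.

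The filter was filterByExpr and the scaling TMM. The test was the two-sided quasi-likelihood test of edgeR 4.0.16 in R 4.3.3, on all 8 libraries with genotype as the only factor and Benjamini-Hochberg adjustment over the 14228 tested genes. The deposited TPM were used for levels. Implied TPM gene lengths lay within 1% of GENCODE M21 exon lengths for 7424 of 7457 genes. Positions and 3′ UTRs came from GENCODE M21 (93 identifiers had no match), and all 15 microRNAs matched RefSeq. The alternatives were DESeq2 1.42.0, limma 3.58.1, and other scalings, filters and corrections. Scripts were tested on simulated data.

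The named genes were all members, Ago2, and from each other list the most abundant gene and any with an unadjusted p under 0.05. Btrc and the 5 genes named from the fit without wild-type replicate 4 fall outside this rule and were chosen after their values were seen. Members and lists were chosen with earlier results of these data known. A result for 1 of the named genes is not reported here.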

Additional observations from a re-analysis of the deposited data

Results flagged for a closer look

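Among 50 groups of 4 values examined, 1 held a value far from the others: the median Spearman correlation of wild-type replicate 4 with its own group was 0.864, and its gap to the nearest other wild-type library made up 0.867 of the group's range. Chance alone marks about 1 in 20 such groups. This library also sets the fold changes of Bad and Bak1, which were −0.12 and 0.03 on the log2 scale without it.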

How the results depend on the processing

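Under 19 alternatives, no member and no gene of the other lists had an adjusted p under 0.05. Bcl2l11 was higher in ΔAgo2 cells under all 19, from 0.35 with voomWithQualityWeights to 1.12 (log2). Its unadjusted p was under 0.05 in 10, with a lowest adjusted p of 0.343. Leaving out ΔAgo2 replicate 3, where Bcl2l11 was highest, gave 0.58 (unadjusted p = 0.1755 in edgeR). Leaving out wild-type replicate 2 gave 0.68 (unadjusted p = 0.129 in edgeR). Bmf ranged from 0.35 to 1.10 (lowest adjusted p = 0.203) and Bad from −1.72 to −0.10 (lowest adjusted p = 0.388). Their unadjusted p was under 0.05 in 6 and 5 of the alternatives. Of all tested genes, 42 were called (11 higher, 31 lower), 399 with DESeq2, 143 without a filter, 6 with at least 1 CPM in 4 libraries, 15 on log2(TPM + 1) (8 higher, 7 lower), 257 with voomWithQualityWeights (104 higher, 153 lower), 66 with the GC correction (26 higher, 40 lower) and 1045 at an unadjusted p under 0.05. Leaving out 1 library gave 1 (ΔAgo2 replicate 1) to 113 (wild-type replicate 4).

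A fit with a replicate block called 18 genes, with Bcl2l11 at 0.91, Bmf at 0.77, Bad at −0.71 and Bak1 at −0.42. Deviations of same-numbered libraries correlated at −0.14, −0.05, 0.38 and 0.03, so the numbers were not taken as pairs.

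Signs turned in the following cases, and the cause was not tested. On log2(TPM + 1) and log2(TPM + 0.1), which moved the median of all genes by 0.26 and 0.33, the values were 0.062 and 0.063 for Bcl2l1, 0.15 and 0.17 for Bcl2l2, 0.19 and 0.19 for Mcl1, 0.096 and 0.10 for Bid, 0.0082 and 0.0087 for Bax, 0.036 and 0.037 for Birc5, and 0.12 and 0.12 for Tnfrsf1a. With voomWithQualityWeights they were 0.10 for Bcl2l1, 0.18 for Bak1, 0.021 for Bax, 0.17 for Birc5, 0.17 for Tnfrsf1a and 0.23 for Trp53. With the GC correction, first alone and then beside the replicate block, they were 0.072 and 0.12 for Bcl2l1, 0.12 and 0.13 for Bax, and 0.18 and 0.18 for Tnfrsf1a, and with both 0.13 for Bcl2l2. Leaving out 1 library gave ranges that cross 0, of −0.43 to 0.030 for Bcl2l1, −0.34 to 0.17 for Bcl2l2, −0.25 to 0.16 for Mcl1, −0.94 to 0.026 for Bak1, −0.22 to 0.010 for Bid, −0.70 to 0.21 for Bax, −0.37 to 0.23 for Tnfrsf1a, −0.11 to 0.37 for Huwe1, −0.97 to 0.13 for Trp53 and −0.047 to 0.60 for Ago2. The range was 0.068 to 0.77 for Bcl2 and −0.45 to −0.046 for Birc5, with no change of sign. Low counts limit Bik, which has no tested value.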
